A study of Mus musculus with 6 samples.

Results

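Glycolysis splits glucose into pyruvate and lactate, and hypoxia-inducible factor (HIF) is the transcription factor that raises the genes of this pathway when oxygen is short. The set described here holds 39 mouse genes of both kinds, chosen by name and matched through their Ensembl identifiers. They are 39 of the 46983 genes in the count tables, and all 39 had enough reads to be among the 12292 genes tested. By role they fall into 17 glycolytic enzymes, 7 carriers and regulators of the pathway, 5 HIF subunits and hydroxylases, and 10 other HIF targets. The RNA came from colonies that lineage-depleted bone marrow progenitors of C57BL/6 mice, labelled 8 to 11 weeks old, formed in methylcellulose, fed by IL-6, IL-3 and mSCF. The cultures were stopped at 6 to 7 days, after 1 round of plating. The KO group (n = 3) is labelled Psip1-KO and its mice PsipVav/Vav in the series design, with no further word on the Vav mark. The WT group (n = 3) is labelled wild type, while the design calls its mice PsipFl/Fl. Nothing in the labels ties each library to an animal of its own, so a p-value here speaks of the spread between libraries, part of which may be technical. The series title asks whether LEDGF/p75, the product of Psip1, is needed for normal blood formation or for leukaemia with MLL rearrangements.

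As background, glucose enters the cell through SLC2A carriers and is trapped by hexokinases. Phosphofructokinase, under the control of the PFKFB enzymes, commits it to glycolysis, and lactate dehydrogenase and the lactate exporter SLC16A3 end the route. HIF is a pair of an oxygen-sensitive alpha subunit (HIF1A or EPAS1) and the constant partner ARNT. In the presence of oxygen the EGLN prolyl hydroxylases mark the alpha subunit for destruction, and EGLN3 is itself a HIF target, which closes a feedback loop. Mature neutrophils have few active mitochondria and live largely on glycolysis, while macrophages use HIF in inflammatory activation.

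Depth was uneven. The KO libraries held 12714022, 7056614 and 15569088 reads on genes, and WT replicates 1 and 2 held 14332364 and 10418101. WT replicate 3 held 27909, so that 1 of its reads was worth 29.9 normalised CPM (read counts scaled to a common library size) and 3 reads, taken as the limit that a count of 0 allows, were worth 89.6 CPM. It held 186 reads on the 39 genes together and 0 on 12 of them, and its values are given as reads. All other levels are normalised CPM in the 5 deep libraries. KO replicate 2 stood apart by its mitochondrial share of 15.74% of gene reads, against 1.26% to 1.84% in the other deep libraries. Psip1 stood at 14.8, 17.6 and 16.3 CPM in KO replicates 1, 2 and 3, against 89.3 and 70.0 CPM in WT replicates 1 and 2 and 3 reads in WT replicate 3. Its levels did not overlap between the labels in the deep libraries, with a log2 fold change of -2.32 (SE 0.32) and an adjusted p = 0.0599 in edgeR's quasi-likelihood test.

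None of the 39 genes passed the test between KO and WT. The test was edgeR's quasi-likelihood test with Benjamini-Hochberg adjustment over all 12292 genes, and every adjusted p of these genes rounded to 1. Among all genes tested, 0 were called (0.0%) at an adjusted p of 0.05, and 178 (1.45%) had an unadjusted p under 0.05, while DESeq2 called 1 gene (0.0045%) and 0 of the 39. Among the 39, Egln3 was the 1 gene with an unadjusted p under 0.05, on the lower side in KO, where 0.212% of all genes tested stood, against 1.24% on the higher side. In log2 fold change 29 of the 39 genes were below 0 and 10 above it, with a median of -0.18 and a range from -1.06 to 0.68. Over all genes tested 48.0% were below 0, and the median was 0.01.

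The level of these genes differed between libraries of 1 genotype. WT replicate 2 was the highest of the 5 deep libraries for 23 of the 39 genes (59.0%), while it was the highest for 24.9% of all genes tested. KO replicates 1, 2 and 3 were highest for 4, 5 and 2 of the 39, against 9.63%, 26.8% and 16.4% of all genes, and WT replicate 1 for 5, against 22.3%. Summed over the 39 genes, the levels were 8003, 6549 and 7241 CPM in KO replicates 1, 2 and 3, against 7181 and 10720.3 CPM in WT replicates 1 and 2. The sum in WT replicate 1 thus lay within the range of the KO libraries, and that in WT replicate 2 above all of them. WT replicate 3 gave 0.666% of its gene reads to the set, with a 95% Wilson interval of 0.578% to 0.769% that covers counting error only. The share was 0.800%, 0.587% and 0.705% in KO replicates 1, 2 and 3 and 0.690% and 1.05% in WT replicates 1 and 2. Mitochondrial reads count in the total and lower the share most in KO replicate 2 (15.74% mitochondrial) and WT replicate 3 (9.52%). Without WT replicate 2 the median log2 fold change of the set was 0.03, with 16 of 39 genes below 0, and without WT replicate 3 it was -0.27, with 33 of 39 below 0.

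**Figure D1:**
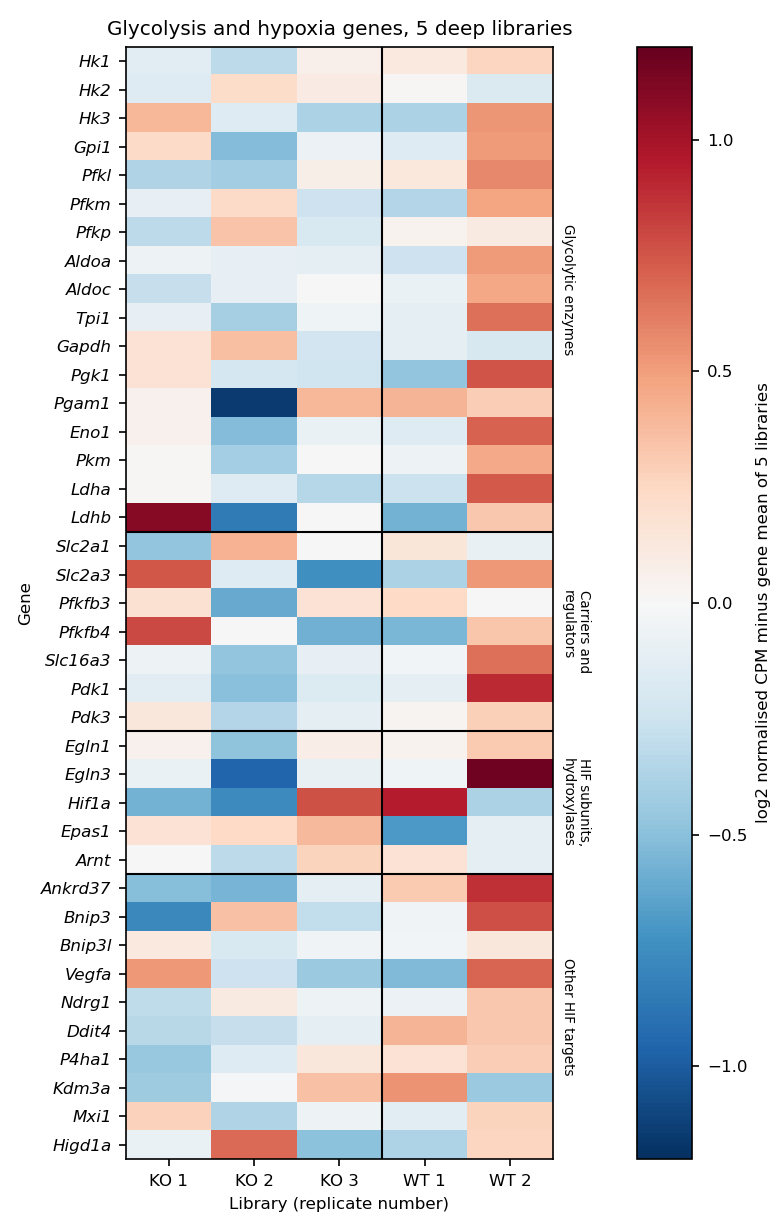
Level of each of the 39 genes in the 5 deep libraries, as log2 normalised CPM minus the mean of the gene over these libraries; rows are grouped by role, KO libraries stand left of the black line and WT libraries right of it. The WT replicate 2 column holds the highest value in 23 of 39 rows.

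**Figure D2:**
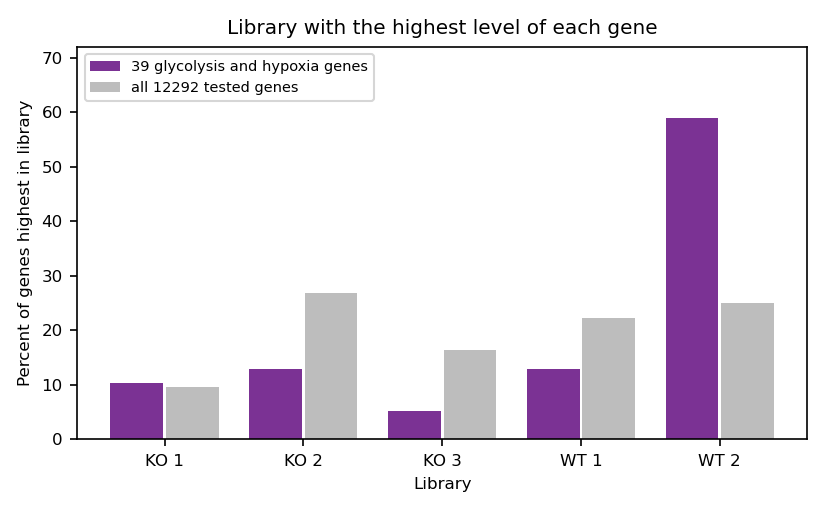
Percent of genes whose highest level among the 5 deep libraries lies in each library (x axis), for the 39 glycolysis and hypoxia genes (purple) and for all 12292 genes tested (grey). WT replicate 2 takes 59.0% of the 39 genes and 24.9% of all genes.

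The sequences before 4 of these genes are shown because they hold letters of the core that HIF binds in DNA and belong to genes of low p within their role. Each is the 250 bases before the start that RefSeq lists first (GRCm38.p6), read 5′ to 3′ on the strand of the gene. Capitals mark ACGTG or its reverse complement CACGT, and where both overlap they run together as CACGTG.
Ldha, chr7:46845554-46845803, plus strand: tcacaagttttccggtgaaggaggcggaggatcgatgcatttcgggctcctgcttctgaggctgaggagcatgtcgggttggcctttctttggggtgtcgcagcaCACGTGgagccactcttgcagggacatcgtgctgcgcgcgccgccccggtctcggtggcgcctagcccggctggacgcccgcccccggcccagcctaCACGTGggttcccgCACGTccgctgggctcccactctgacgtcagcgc
Egln3, chr12:54203875-54204124, minus strand: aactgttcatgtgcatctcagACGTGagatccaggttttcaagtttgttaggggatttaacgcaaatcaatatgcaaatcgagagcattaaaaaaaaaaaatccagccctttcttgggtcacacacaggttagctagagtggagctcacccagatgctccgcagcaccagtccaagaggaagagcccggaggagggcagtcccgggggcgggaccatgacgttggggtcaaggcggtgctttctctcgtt
Ankrd37, chr8:45999851-46000100, minus strand: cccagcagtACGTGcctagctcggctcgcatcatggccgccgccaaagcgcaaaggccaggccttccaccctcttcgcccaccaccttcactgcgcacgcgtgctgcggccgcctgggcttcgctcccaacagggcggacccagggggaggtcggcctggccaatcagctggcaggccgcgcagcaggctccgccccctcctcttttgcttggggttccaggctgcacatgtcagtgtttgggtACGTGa
Ddit4, chr10:59951771-59952020, minus strand: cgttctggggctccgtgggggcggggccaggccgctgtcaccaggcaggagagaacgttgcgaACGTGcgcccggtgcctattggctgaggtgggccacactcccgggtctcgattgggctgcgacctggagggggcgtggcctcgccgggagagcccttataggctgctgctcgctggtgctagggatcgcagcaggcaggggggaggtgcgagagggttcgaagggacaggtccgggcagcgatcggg
With -1 as the base next to the start, the Egln3 match begins at -229, the Ddit4 match at -187 and the Ankrd37 matches at -241 and -6, while Ldha has 3 places. These starts are not the outermost ends of the GENCODE M21 genes. The Ldha window (gene on the plus strand of chromosome 7, 46841475 to 46855627) and the Ankrd37 window lie inside the annotated gene, the Ddit4 window overlaps the gene's first bases, and the Egln3 window lies outside the gene. Windows were found for 35 of the 39 genes, and none was matched for Slc2a3, Bnip3l, Ndrg1 and Epas1. ACGTG on either strand was in 17 of the 35 windows (48.6%), against 4477 of 27025 windows of the same length before all listed genes (16.6%). GCGTG, the other common form of the core, was in 19 (54.3%), against 28.2% of all windows, and CACGTG, which holds ACGTG on both strands, in 4 (11.4%), against 6.05%. The windows of all listed genes were not limited to the genes tested, nor matched to the 35 in base composition. For 9 genes the KO libraries did not overlap the deep WT libraries, 8 below and 1 above, against 3.87% and 4.79% of all genes tested. Among these 9, ACGTG was in the windows of Slc16a3, Egln3, Ankrd37, Ddit4 and P4ha1 and not in those of Hk1, Pfkl and Pdk1. Epas1 had no window. Whether ACGTG goes with the lack of overlap was not tested. A match describes these letters only.

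Glycolytic enzymes were abundant, and 12 of the 17 had a log2 fold change below 0 and 5 above it. The median was -0.15 (range -0.49 to 0.39), against 0.01 over all genes, and 0 were called. Summed over the 17 enzymes the level was 6171, 5084 and 5597 CPM in KO replicates 1, 2 and 3, against 5432 and 8592 CPM in WT replicates 1 and 2. WT replicate 2 was the highest library for 12 of the 17 (70.6%). Without it the median of the enzymes turned to 0.26, with 5 of 17 below 0, where the median over all genes was 0.09. Without the shallow WT replicate 3 it was -0.31, with 14 of 17 below 0, and without KO replicate 1 it was -0.30, also with 14 of 17.

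Tpi1 encodes triose phosphate isomerase, which interconverts the products of aldolase so that both go on (minus strand of chromosome 6, 124810586 to 124814296, GRCm38). Its level was 316, 257 and 327 CPM in KO replicates 1, 2 and 3, against 313 and 534 CPM in WT replicates 1 and 2 and 14 reads in WT replicate 3. The groups overlapped, since WT replicate 1 lay among the KO libraries. The log2 fold change was -0.49 (SE 0.34), the lowest p among the enzymes, and -0.20 without WT replicate 2. Aldoc, the aldolase best known from brain, was far scarcer, at 21.7, 24.5 and 26.1 CPM in KO replicates 1, 2 and 3, against 24.8 and 36.1 CPM in WT replicates 1 and 2 and 3 reads in WT replicate 3. Again WT replicate 1 lay within the KO range (log2 fold change -0.49, SE 0.40). Ldha, the lactate dehydrogenase subunit that favours lactate formation, had 735, 655 and 573 CPM in KO replicates 1, 2 and 3, against 609 and 1212 CPM in WT replicates 1 and 2 and 24 reads in WT replicate 3. Its level in WT replicate 2 was 1.99 times that in WT replicate 1, a gap wider than any among the KO libraries. The log2 fold change of Ldha was -0.39 (SE 0.38), and without WT replicate 2 it was 0.03.

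Aldoa, the main aldolase, had the highest level per kb of exon among the enzymes, at 408 ± 5.95 CPM per kb in KO (SD, n = 3), against 365 and 619 CPM per kb in WT replicates 1 and 2. Per library it stood at 1208, 1182 and 1175 CPM in KO replicates 1, 2 and 3, against 1064 and 1803 CPM in WT replicates 1 and 2 and 35 reads in WT replicate 3. The 3 KO libraries were close together and lay between the deep WT libraries (log2 fold change -0.15, SE 0.38). Pkm, a pyruvate kinase, was at 1263, 942 and 1239 CPM in KO replicates 1, 2 and 3, against 1195 and 1710.0 CPM in WT replicates 1 and 2. KO replicate 2 was the lowest and WT replicate 2 the highest library, and the log2 fold change was -0.09 (SE 0.41).

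For 2 of the 17 enzymes every KO library lay below both deep WT libraries, where 3.87% of all genes tested did. Hk1, the hexokinase of most tissues, stood at 218, 191 and 248 CPM in KO replicates 1, 2 and 3, against 257 and 284 CPM in WT replicates 1 and 2 and 3 reads in WT replicate 3. The gap between the highest KO and the lowest deep WT library was 3.81%, and the log2 fold change was -0.10 (SE 0.37). Pfkl, a phosphofructokinase isozyme, stood at 103, 98.6 and 138 CPM in KO replicates 1, 2 and 3, against 144 and 197 CPM in WT replicates 1 and 2 and 1 read in WT replicate 3. Here the gap was 3.75%, with a log2 fold change of -0.39 (SE 0.40), and -0.037 without WT replicate 2. Neither gap is wide beside the spread within KO.

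The other 10 enzymes lay on both sides of 0. Those below 0 were Gpi1, Pfkm, Pgk1, Pgam1 and Eno1, with log2 fold changes from -0.47 to -0.12, and those above 0 were Hk2, Hk3, Pfkp, Gapdh and Ldhb, from 0.09 to 0.39. Pfkm, at -0.47, leaned on 4 reads in WT replicate 3 and was at -0.15 without that library, and Pgam1 was at -0.05 without KO replicate 2, against -0.37 with it. With 1 library left out the sign turned for Gpi1, Pgk1, Eno1, Hk3, Pfkp and Ldhb. Hk3, a hexokinase found mainly in myeloid cells, stood at 577, 392 and 337 CPM in KO replicates 1, 2 and 3, against 336 and 631 CPM in WT replicates 1 and 2. The deep WT libraries spanned the whole KO range. Gapdh, the dehydrogenase of the pathway, counted few reads, at 42.3, 48.1 and 31.9 CPM in KO replicates 1, 2 and 3, against 34.7 and 32.9 CPM in WT replicates 1 and 2. Of the 50-base stretches in its transcripts 58.4% also occur in 222 genes elsewhere in the genome, 215 of them annotated pseudogenes, and a read that fits several places is not in these counts. The length of 50 bases is assumed, as the read length is not given, and such shares depend on it. The share was 68.0% for Pgk1, 49.5% for Eno1, 41.5% for Pgam1 and 23.7% for Pkm, so the levels of these genes are uncertain, and so are those of Bnip3 (59.1%), Bnip3l (24.4%), Higd1a (24.4%), Ldhb (20.99%) and Gpi1 (19.0%). In Ldha, Aldoa and Tpi1 the share was 10.4%, 8.46% and 6.83%. Slc2a1, Slc2a3, Pfkm, Pfkfb3 and Arnt each overlap another annotated gene on their own strand, which could take some of their reads.

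Carriers and regulators did not pass the test either, and 5 of the 7 were below 0 in log2 fold change and 2 above. The median was -0.12 (range -0.63 to 0.07), and WT replicate 2 was the highest library for 3 of the 7. The median was 0.03 without WT replicate 2 and -0.39 without KO replicate 1. Pdk1, a kinase that shuts pyruvate dehydrogenase and so keeps pyruvate out of mitochondria (plus strand of chromosome 2, 71873224 to 71903858), stood at 30.4, 23.4 and 29.6 CPM in KO replicates 1, 2 and 3, against 30.8 and 61.4 CPM in WT replicates 1 and 2. The KO libraries lay below both, but the gap to WT replicate 1 was 1.34%, and WT replicate 3 had 0 reads. The log2 fold change was -0.63 (SE 0.42), and without WT replicate 2 it was -0.01. Slc16a3, the lactate exporter, was highest per kb in this group by the mean of the 5 deep libraries, at 34.4 CPM per kb, which WT replicate 2 raised. It stood at 29.0 ± 4.36 CPM per kb in KO (SD, n = 3), against 32.6 and 52.5 CPM per kb in WT replicates 1 and 2. In KO alone Slc2a3 and Slc2a1 were slightly above it, at 29.6 and 29.5 CPM per kb. Per library Slc16a3 had 170.1, 128 and 165 CPM in KO replicates 1, 2 and 3, against 173 and 279 CPM in WT replicates 1 and 2 and 4 reads in WT replicate 3. Its gap of 1.94% was as narrow (log2 fold change -0.42, SE 0.36, and -0.02 without WT replicate 2).

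The glucose carriers split by library. Slc2a3, a high-affinity carrier of neurons and white blood cells, stood at 339.7, 182 and 122 CPM in KO replicates 1, 2 and 3, against 156 and 289.5 CPM in WT replicates 1 and 2 and 11 reads in WT replicate 3. Its levels ran 2.79-fold from the lowest to the highest deep library, KO replicates 3 and 1, and the log2 fold change was -0.18 (SE 0.45). Slc2a1, the carrier of most cell types, had 73.4, 136 and 101 CPM in KO replicates 1, 2 and 3, against 112 and 95.4 CPM in WT replicates 1 and 2. KO replicate 1 thus held the highest level of Slc2a3 and the lowest of Slc2a1. Pfkfb4, which makes or removes the activator of phosphofructokinase, was high where Slc2a3 was, at 203, 117 and 78.4 CPM in KO replicates 1, 2 and 3, against 79.8 and 147 CPM in WT replicates 1 and 2. Pfkfb3 and Pdk3 differed by less than their standard errors, with log2 fold changes of -0.0041 (SE 0.44) and -0.12 (SE 0.40).

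**Figure D3:**
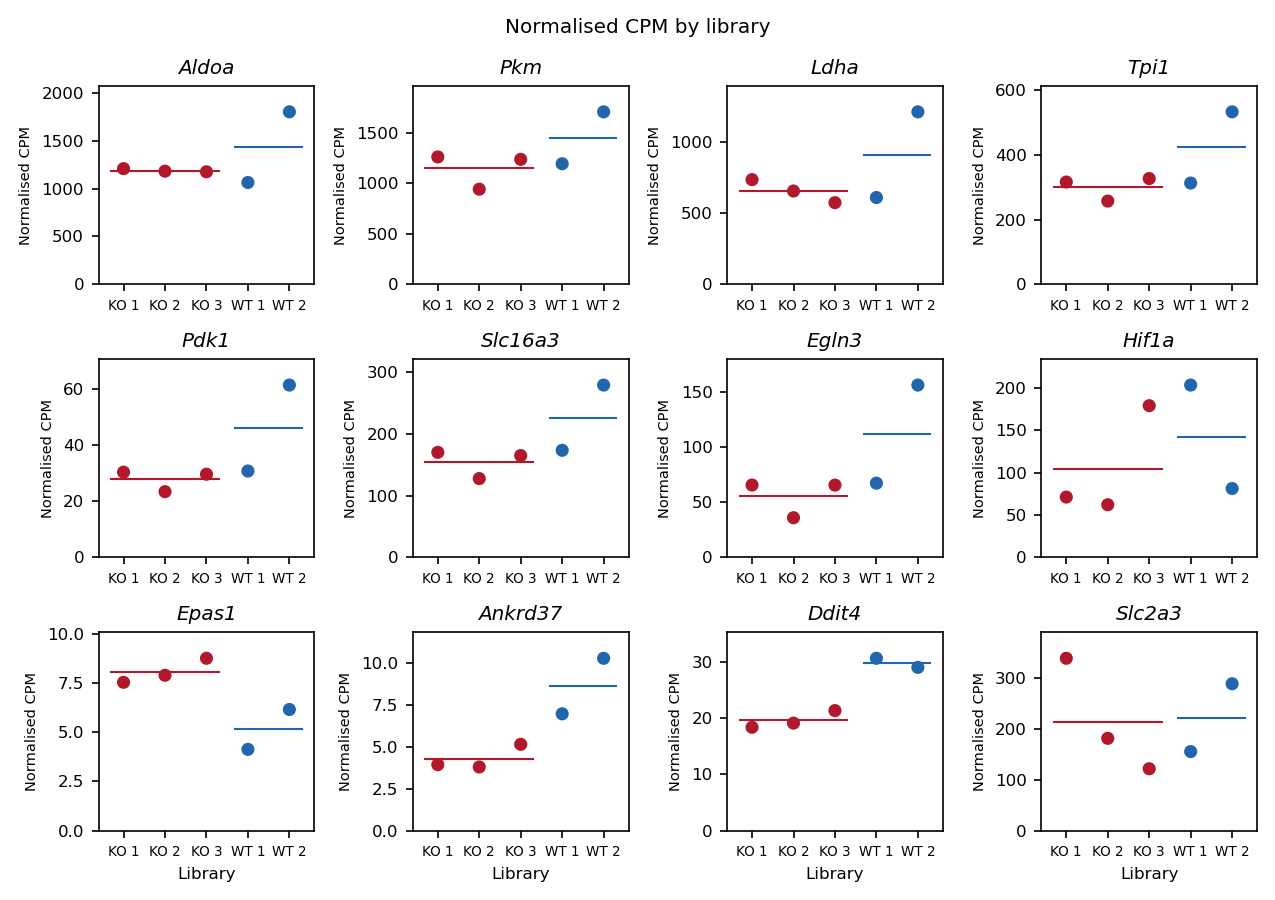
Normalised CPM (y axis) in the 5 deep libraries (x axis) for 12 of the genes, with KO libraries in red, WT libraries in blue and a line at the mean of each group. For Aldoa, Ldha and Tpi1, WT replicate 1 lies within or below the KO libraries and WT replicate 2 above them. Ankrd37, Ddit4 and Epas1 do not overlap between the groups, nor do Egln3, Pdk1 and Slc16a3, whose gaps are narrower.

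HIF subunits and hydroxylases went in both directions, with 3 of 5 below 0 and 2 above, a median of -0.18 and 0 called. The median was 0.28 without WT replicate 1, where that over all genes was 0.13. Egln3, the inducible HIF prolyl hydroxylase (minus strand of chromosome 12, 54178981 to 54203860), stood at 65.5, 35.9 and 65.5 CPM in KO replicates 1, 2 and 3, against 67.2 and 156 CPM in WT replicates 1 and 2 and 5 reads in WT replicate 3. All KO libraries lay below both deep WT libraries, though WT replicate 1 was above KO replicate 1 by 2.55%. The log2 fold change was -1.06 (SE 0.42), the largest of the 39 genes, with an unadjusted p = 0.0268 and an adjusted p = 1 in edgeR's quasi-likelihood test. Without WT replicate 2 it was -0.51 (SE 0.49), and without WT replicate 1 it was -1.42. Over 15 alternatives it stayed below 0, with adjusted p from 0.452 to 1. Egln3 was also the highest of its group per kb, at 20.9 ± 6.42 CPM per kb in KO (SD, n = 3), against 25.2 and 58.6 CPM per kb in WT replicates 1 and 2.

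Epas1, the alpha subunit of HIF-2, was the 1 gene with every KO library above both deep WT libraries, where 4.79% of all genes tested stood. Its level was 7.55, 7.91 and 8.78 CPM in KO replicates 1, 2 and 3, against 4.14 and 6.17 CPM in WT replicates 1 and 2 and 0 reads in WT replicate 3. The gap was 22.4%, and the log2 fold change was 0.68 (SE 0.45, adjusted p = 1 by edgeR), between 0.50 and 1.01 over the alternatives. Hif1a, the alpha subunit of HIF-1, was far more variable, at 71.3, 62.2 and 179 CPM in KO replicates 1, 2 and 3, against 204 and 81.4 CPM in WT replicates 1 and 2 and 1 read in WT replicate 3. Each genotype thus had a high library, and the log2 fold change was -0.28 (SE 0.53), with -0.57 without WT replicate 2 and 0.56 without WT replicate 1. Arnt and Egln1, the constant partner and the main hydroxylase, were at 0.05 (SE 0.34) and -0.18 (SE 0.39).

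Of the 10 other HIF targets, 9 had a log2 fold change below 0 and 1 above it, with a median of -0.21 (range -0.95 to 0.19) and 0 called. Ankrd37, a small ankyrin repeat gene that HIF induces (minus strand of chromosome 8, 45996902 to 46005707), had 3.93, 3.80 and 5.15 CPM in KO replicates 1, 2 and 3, against 6.97 and 10.3 CPM in WT replicates 1 and 2 and 0 reads in WT replicate 3. The groups were apart by 35.4%, with a log2 fold change of -0.95 (SE 0.46) that lay between -1.11 and -0.61 over the alternatives. Ddit4, an inhibitor of mTORC1 signalling (minus strand of chromosome 10, 59949669 to 59951834), had 18.4, 19.1 and 21.4 CPM in KO replicates 1, 2 and 3, against 30.7 and 29.1 CPM in WT replicates 1 and 2 and 0 reads in WT replicate 3. Both deep WT libraries were close to each other, and the gap to KO was 36.0%. Its log2 fold change was -0.53 (SE 0.38), and -0.50 without WT replicate 2. P4ha1, a subunit of the enzyme that hydroxylates collagen prolines, had 45.0, 55.4 and 67.8 CPM in KO replicates 1, 2 and 3, against 69.2 and 75.3 CPM in WT replicates 1 and 2 and 2 reads in WT replicate 3. Its gap was 2.17%, and the log2 fold change was -0.34 (SE 0.32).

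Bnip3, a mitophagy receptor, stood at 9.36, 20.4 and 13.1 CPM in KO replicates 1, 2 and 3, against 15.5 and 27.3 CPM in WT replicates 1 and 2 and 0 reads in WT replicate 3. The groups overlapped (log2 fold change -0.52, SE 0.46, and -0.03 without WT replicate 2). Its relative Bnip3l, the receptor that clears mitochondria from maturing red cells, was the steadiest of the set, at 109, 88.6 and 97.5 CPM in KO replicates 1, 2 and 3, against 97.7 and 110.2 CPM in WT replicates 1 and 2 and 3 reads in WT replicate 3. Its level is uncertain, as it shares stretches with an annotated pseudogene. It was the highest of the targets per kb, at 25.5 ± 2.63 CPM per kb in KO (SD, n = 3), against 25.3 and 28.6 CPM per kb in WT replicates 1 and 2, with a log2 fold change of -0.06 (SE 0.31). Vegfa, the growth factor of blood vessels, had 54.0, 31.6 and 27.5 CPM in KO replicates 1, 2 and 3, against 26.1 and 61.1 CPM in WT replicates 1 and 2. KO replicate 1 and WT replicate 2 were high together, and the log2 fold change was -0.18 (SE 0.43). The histone demethylase gene Kdm3a, the MYC antagonist Mxi1, the stress gene Ndrg1 and the mitochondrial gene Higd1a lay between -0.24 and 0.19.

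In all, every KO library lay below both deep WT libraries for 8 of the 39 genes (20.5%), namely Hk1, Pfkl, Slc16a3, Pdk1, Egln3, Ankrd37, Ddit4 and P4ha1, where 3.87% of all genes tested did. For 6 of the 8 the gap was between 1.34% and 3.81% of the highest KO level, while it was 35.4% for Ankrd37 and 36.0% for Ddit4. Scaled by library size only, the count was 5 of 39, against 3.56% of all genes. WT replicate 3 is too shallow to place any of them.

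**Figure D4:**
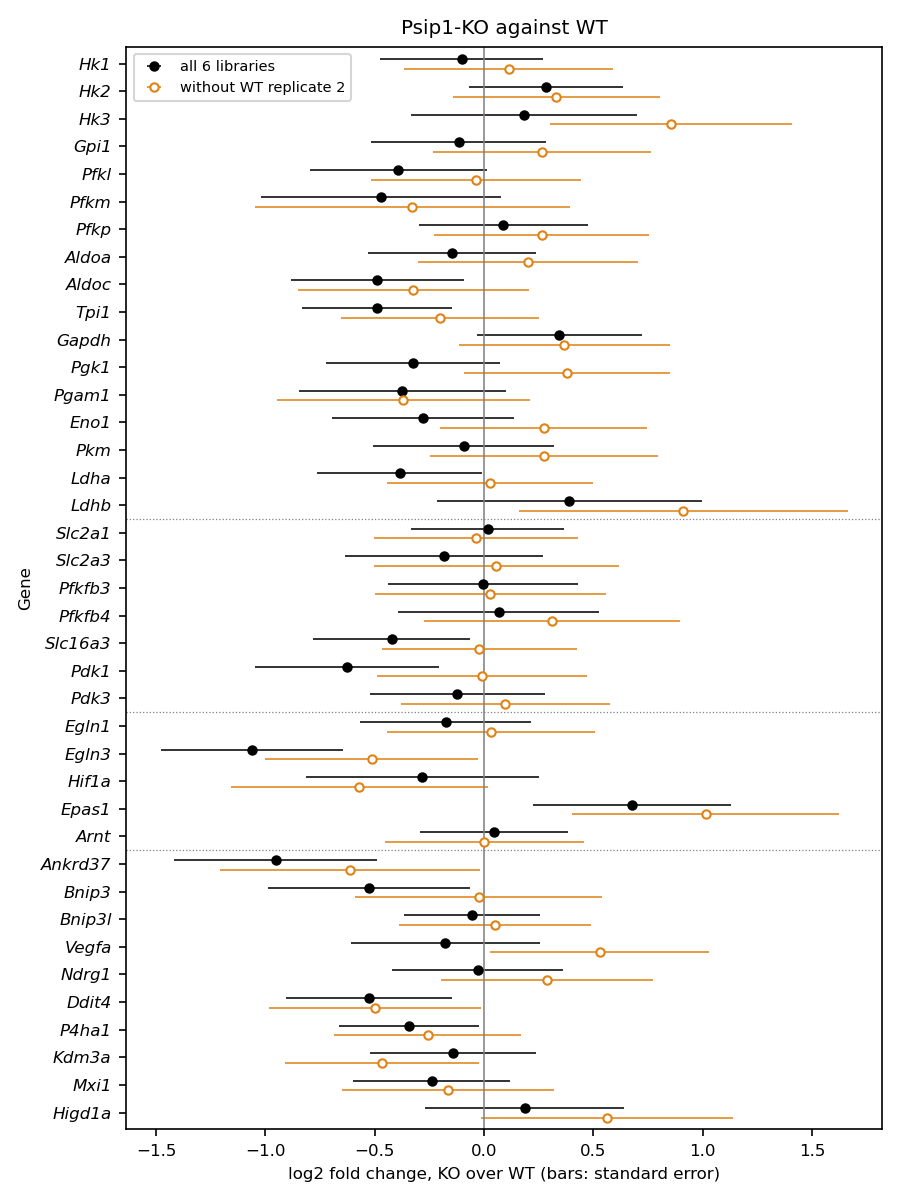
Log2 fold change of KO over WT (x axis) with its standard error for the 39 genes, fitted on all 6 libraries (black) and without WT replicate 2 (open orange), in the order of the roles. The median moves to 0.03 without WT replicate 2, against -0.18 with it. Egln3, Ankrd37 and Ddit4 are among several genes that stay below 0 in both fits, and Epas1 among several that stay above it.

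Shares between isozymes were compared per kb of exon, so that the depth of a library and its overall level cancel. The size of a share depends on the exon lengths used, here all annotated exons merged. Hk3 made up 75.7%, 66.1% and 61.0% of the hexokinase level in KO replicates 1, 2 and 3, against 61.1% and 74.8% in WT replicates 1 and 2. Slc2a3 made up 69.1%, 39.3% and 36.8% of the sum with Slc2a1 in KO replicates 1, 2 and 3, against 40.1% and 59.5% in WT replicates 1 and 2. Pfkfb4 made up 75.5%, 75.4% and 54.5% of the sum with Pfkfb3 in KO replicates 1, 2 and 3, against 53.8% and 71.6% in WT replicates 1 and 2. All 3 shares were high in KO replicate 1 and WT replicate 2 and low in KO replicate 3 and WT replicate 1. Epas1 made up 10.1%, 11.8% and 4.91% of the alpha subunits in KO replicates 1, 2 and 3, against 2.10% and 7.40% in WT replicates 1 and 2. Ldhb was a minor lactate dehydrogenase in every deep library, from 0.858% to 2.87% in KO, against 1.12% and 1.04% in WT replicates 1 and 2. The deep libraries of the groups overlapped for all 12 shares computed. WT replicate 3 held between 1 and 38 reads on each family of isozymes, and its shares are not given. A permutation test of each share over all 6 libraries can reach no p under 0.1 with 3 against 3. Its lowest unadjusted p was 0.2, and no conclusion is drawn from it.

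Library by library, the pair closest in the 39 genes crossed the genotypes. Between KO replicate 3 and WT replicate 1 the median absolute log2 difference was 0.08 over the 39 genes and 0.14 over all genes tested. Between KO replicate 1 and WT replicate 2 it was 0.42 over the 39 genes and 0.22 over all genes, and KO replicate 1 was higher for 10 of 39. The second pair was therefore close in the transcriptome as a whole and less so in these genes. Against WT replicate 2 the median log2 difference of the 39 genes was -0.38 for KO replicate 1, -0.61 for KO replicate 2, -0.47 for KO replicate 3 and -0.54 for WT replicate 1. Within KO the median log2 difference was 0.30 for replicate 1 over replicate 2 and -0.24 for replicate 2 over replicate 3, so that KO replicate 2 was the lowest of the KO libraries.

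Markers of blood cell types differed between the same libraries. The 6 markers of primary neutrophil granules, all tested, summed to 7079, 2127 and 1862 CPM in KO replicates 1, 2 and 3, against 2181 and 9317 CPM in WT replicates 1 and 2. The 8 markers of mature neutrophils summed to 85055, 40269 and 35737 CPM in KO replicates 1, 2 and 3, against 45668 and 94719 CPM in WT replicates 1 and 2. Slc2a3, Pfkfb4, Hk3 and Vegfa were high in the same libraries, KO replicate 1 and WT replicate 2. The 6 lymphoid markers, though scarce, were also highest there, at 72.8 and 145 CPM, so this order was not particular to neutrophils. The 10 markers of monocytes and macrophages had another order, with 7248, 4203 and 12087 CPM in KO replicates 1, 2 and 3, against 12383 and 4795 CPM in WT replicates 1 and 2. Hif1a and Kdm3a were high where these were, in KO replicate 3 and WT replicate 1. The 5 eosinophil markers were highest in the same libraries, at 1495 and 1484 CPM, so this order was not particular to monocytes and macrophages. Mast cell and basophil markers (8) summed to 3244, 9836 and 4247 CPM in KO replicates 1, 2 and 3, against 5561 and 4689 CPM in WT replicates 1 and 2, and Slc2a1 was highest in KO replicate 2 as well. The part of these cell types in the levels of the 39 genes was not tested, and in bulk RNA fewer cells of a type and less RNA per cell cannot be told apart.

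Markers of other cell types were also read. Erythroid markers (8) summed to between 7.72 and 87.3 CPM in KO, against 12.3 and 103 CPM in WT replicates 1 and 2. Lymphoid markers (6) summed to between 11.2 and 72.8 CPM in KO, against 20.5 and 145 CPM in WT replicates 1 and 2, with Cd3e and Cd3g at 0 reads in every deep library. Markers of stroma and endothelium (6) summed to between 135 and 196 CPM in KO, against 141 and 249.6 CPM in WT replicates 1 and 2, with Col3a1 and Cxcl12 at 0 reads. Eosinophil markers (5) ran from 303 to 1495 CPM in KO, against 1484 and 460.5 CPM in WT replicates 1 and 2. Dendritic cell markers (7) ran from 424 to 742 CPM in KO, against 345 and 464 CPM in WT replicates 1 and 2, and megakaryocyte markers (6) from 299 to 859 CPM in KO, against 390.0 and 717 CPM in WT replicates 1 and 2. Of the markers that were tested, 0 were called; 1 of 6 lymphoid, 3 of 6 stromal and endothelial, 5 of 8 erythroid, 4 of 5 eosinophil and 6 of 7 dendritic cell markers were tested, and every marker of the other lists. Markers of neutrophils, mast cells and monocytes were thus read in every library, and the defining T cell markers in none of the deep ones.

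**Figure D5:**
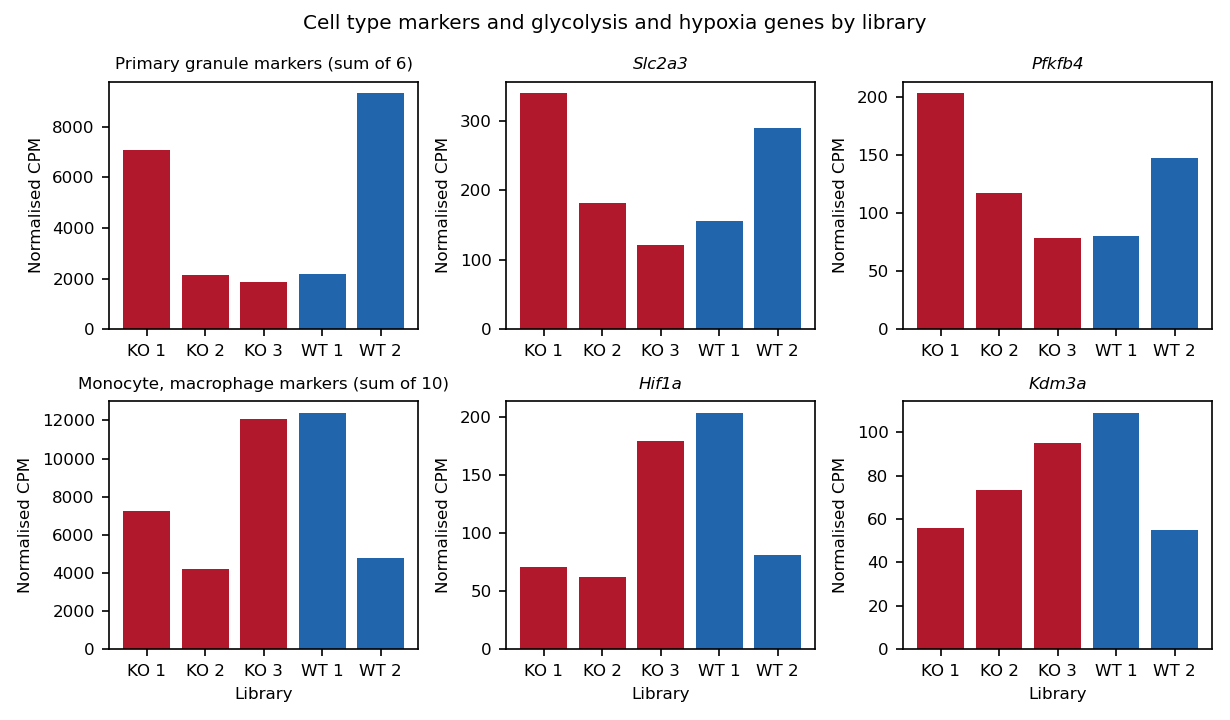
Normalised CPM (y axes start at 0) in the 5 deep libraries for the summed markers of primary neutrophil granules with Slc2a3 and Pfkfb4 (top) and for the summed markers of monocytes and macrophages with Hif1a and Kdm3a (bottom); KO libraries are red and WT libraries blue. The top panels are high in KO replicate 1 and WT replicate 2, and the bottom marker and Hif1a panels in KO replicate 3 and WT replicate 1.

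Genes next to these in the pathways gave 0 calls in each of 4 lists. Of 17 further glycolysis genes tested among 26, 7 were below 0 and 10 above, with a median of 0.20. Their lowest p belonged to Pgm1, which links glycogen to glycolysis, at 51.7, 35.1 and 49.5 CPM in KO replicates 1, 2 and 3, against 41.1 and 98.4 CPM in WT replicates 1 and 2 (log2 fold change -0.65, SE 0.40). The monocarboxylate carrier gene Slc16a7 followed at -4.34 (SE 2.63), a value that rests on 25 reads in WT replicate 3, all from the smaller of its 2 runs. The pentose phosphate route, which branches off at the start of glycolysis, had 7 of 8 genes below 0, with a median of -0.09. There Rpia and Pgls, at -0.48 (SE 0.39) and -0.31 (SE 0.50), had the lowest p. Pgls stood at 100.1, 70.9 and 46.8 CPM in KO replicates 1, 2 and 3, against 36.4 and 144 CPM in WT replicates 1 and 2, high in KO replicate 1 and WT replicate 2 once more. Pyruvate dehydrogenase and its regulators had 4 of 10 below 0, with a median of 0.01. Pdk2, a sister kinase of Pdk1, was scarce, at 3.38, 3.95 and 2.11 CPM in KO replicates 1, 2 and 3, against 1.74 and 1.47 CPM in WT replicates 1 and 2 (0.96, SE 0.54), and Dld was at -0.31 (SE 0.35).

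Of the further hypoxia genes, 35 were tested, with 21 below 0 and 14 above and a median of -0.16. Arnt2, a relative of Arnt, stood at 6.76, 14.4 and 13.8 CPM in KO replicates 1, 2 and 3, against 3.48 and 3.52 CPM in WT replicates 1 and 2 and 0 reads in WT replicate 3. The deep libraries did not overlap, and the log2 fold change was 1.74 (SE 0.50), with an unadjusted p = 0.00463 and an adjusted p = 1 in edgeR's quasi-likelihood test. Nos2, the inducible nitric oxide synthase, had 2.67, 2.21 and 3.76 CPM in KO replicates 1, 2 and 3, against 4.43 and 9.20 CPM in WT replicates 1 and 2. It was lower in each KO library, with a log2 fold change of -1.36 (SE 0.56) and an adjusted p = 1 by edgeR. Neither gene is among the 39.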

How the data were processed

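Polyadenylated RNA was sequenced from 6 colony samples after stranded library preparation (TruSeq Stranded mRNA), per the labels' protocols. The deposited counts are uniquely mapped reads per gene in STAR's layout. The submitters' processing notes name STAR 2.5.1b, DESeq2 and the build GRCm38, without their roles. The annotation release and read length are not given in the sources used here. Counts on the strand opposite to the read were used, which held 95.6% to 97.5% of stranded gene reads. The 4 rows naming no gene, 25.6% to 47.8% of reads, were left out, and both runs of WT replicate 3 were summed. Symbols, coordinates and exon lengths came from GENCODE M21 (46488 of 46983 genes matched, 39 of 39 here), and promoters from RefSeq GRCm38.p6. The exon length of a gene was that of all its annotated exons merged.

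The test was run in edgeR 4.0.16 under R 4.3.3, after filterByExpr and TMM scaling (robust glmQLFit, glmQLFTest, two-sided, genotype as the 1 term, Benjamini-Hochberg over 12292 genes, threshold 0.05). The standard error is the size of the log2 fold change over the root of F. The script was tested on simulated counts. With a log2 change of 1 built in, 2 of 50 genes (4%) were called, and 2 of 50 (4%) with -1. With a log2 change of 2 it called 39 of 50 (78%), and with -2 it called 34 of 50 (68%). There were 7 false calls with 12081 genes. Most changes of 1 log2 unit were thus missed there. DESeq2 1.42.0, other scalings, the filter, strand, runs, mitochondrial genes, a replicate block and leaving out each library were alternatives. The 39 genes, the pathway and marker lists and the tests were chosen with earlier results of these data known. Values in every library are given for the 3 genes of lowest p and the highest per kb in each role, for those without overlap between KO and the deep WT libraries and for Psip1, and the 2 of lowest p were named in each other pathway list. Further values (Pkm, Hk3, Gapdh, Slc2a1, Pfkfb4, Vegfa and Kdm3a) were chosen after their values were seen. Intervals cover counting error only.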

Additional observations from a re-analysis of the deposited data

How the results depend on the processing

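No call on the 39 genes depended on the processing: 0 were called in the main test and in the 15 alternatives and at an adjusted p of 0.1. The number of called genes of the whole table, 0 in the main test, did move in some settings. It was 2 when scaled by library size only, 9 without the low-count filter and 1 with DESeq2. It was 12 with DESeq2 without WT replicate 3, 13 with the replicate block and 4 at an adjusted p of 0.1. With 1 library left out it stayed at 0 without KO replicate 2 or WT replicate 3. It was 2 without KO replicate 1, 3 without WT replicate 2 and 5 without KO replicate 3 or WT replicate 1. Same-numbered libraries correlated at -0.29, -0.03 and -0.15 in their deviations from the group means. The labels state no pairing, and this check cannot exclude one, since the WT mean includes the shallow WT replicate 3. The median log2 fold change, with 1 library left out in turn, ran from -0.27 to 0.031 for the 39 genes, from -0.31 to 0.26 for the enzymes, from -0.39 to 0.029 for carriers and regulators, from -0.28 to 0.28 for HIF subunits and hydroxylases and from -0.36 to -0.095 for the other targets. The lower value came without WT replicate 3 for the 39 genes, the enzymes and HIF subunits and hydroxylases, without KO replicate 1 for carriers and regulators and without WT replicate 1 for the other targets. Leaving out WT replicate 2 gave the upper value except for HIF subunits and hydroxylases, where it was WT replicate 1, and the cause was not tested. DESeq2 shifted the median of its 22213 genes to -0.32, and over the 12292 genes of the main test it was 0.03, with -0.12 for the 39. The count of genes with every KO library below both deep WT libraries was 5 when scaled by library size only, against 3.56% of all genes. It was 10 without KO replicate 2, where the share of all genes also rose, to 6.83%, against 3.87% in the main scaling. These settings were chosen after seeing the data. For WT replicate 2 as the highest library the count lay between 22 and 25. The 25 came without KO replicate 2, where the share of all genes was 33.8%, against 24.9% in the main scaling. In sign, 16 of the 39 genes held in all 15 alternatives and 23 turned in at least 1. With the replicate block Slc2a1 was at -0.0077, Hk1 at 0.00017, Pfkfb3 at 0.055, Pdk3 at 0.019, Vegfa at 0.038 and Ndrg1 at 0.13. By library size only Slc2a1 was at -0.054 and Pfkfb4 at -0.0027. Pfkfb3 was at 0.024 with RLE scaling, 0.029 without the filter and 0.098 with DESeq2, and Ndrg1 at 0.0061, 0.0079 and 0.032. DESeq2 without WT replicate 3 put Slc2a1 at -0.029, Hk3 at -0.16, Pfkp at -0.12 and Arnt at -0.045. With 1 library left out the log2 fold changes that turned ran over Aldoa -0.27 to 0.20, Arnt -0.083 to 0.28, Bnip3l -0.13 to 0.051, Egln1 -0.28 to 0.031, Eno1 -0.51 to 0.27, Gpi1 -0.31 to 0.27, Hif1a -0.92 to 0.56, Higd1a -0.19 to 0.56, Hk1 -0.31 to 0.11, Hk3 -0.15 to 0.86, Kdm3a -0.47 to 0.39, Ldha -0.55 to 0.028, Ldhb -0.26 to 0.91, Ndrg1 -0.22 to 0.29, Pdk3 -0.26 to 0.10, Pfkfb3 -0.17 to 0.25, Pfkfb4 -0.39 to 0.37, Pfkp -0.13 to 0.26, Pgk1 -0.70 to 0.38, Pkm -0.34 to 0.27, Slc2a1 -0.23 to 0.22, Slc2a3 -0.69 to 0.13, Vegfa -0.55 to 0.53. Depth limits WT replicate 3, where 12 of the 39 genes had 0 reads and 6 had at least 10, though it enters every fit and moves the fitted values.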
